A study of Mus musculus with 9 samples.

Results

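T cell receptor variable segments were taken as the genes whose deposited biotype was TR_V_gene and whose FPKM was above 0 in at least 1 of 9 mouse lung libraries. Of 144 such genes in a table of 55851 genes, 120 met the rule and 24 were listed at 0 in every library. The members were 79 of 100 alpha segments, 8 of 10 segments shared by the alpha and delta chains, all 22 beta segments, all 7 gamma segments and 4 of 5 delta segments. The members were thus chosen by their FPKM (reads scaled by gene length and library size), so detection itself is a description here. Just inside the rule, 7 members had 1 read in all 9 libraries together, and 14 had at most 3 reads. At the other end, 47 members had at least 1 read in every library.

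The libraries came from lungs of female C57BL/6J mice, with total lung cells as the starting material and a time label of 7 weeks. They fell into 3 groups of 3 libraries: DJ-1 knockout mice after ovalbumin (DJ-1 KO OVA, with DJ1_KO_OVA_263, DJ1_KO_OVA_266 and DJ1_KO_OVA_267 as its libraries), wild-type mice after ovalbumin (WT OVA, libraries 5, 6 and 9), and wild-type mice given saline (WT PBS, libraries 1, 2 and 3). Ovalbumin is a model allergen, and DJ-1 is the protein encoded by Park7. There was no knockout group given saline, so knockout and challenge were not crossed, and the sources used here do not name the deleted allele or the cells that lack it. The labels do not say that each library was a separate animal, so p-values measure the spread between these libraries. Park7 stood at 3.96 to 7.29 FPKM in DJ-1 KO OVA, against 53.1 to 60.5 FPKM in WT OVA and 36.7 to 53.8 FPKM in WT PBS.

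T cells build their receptors by cutting and joining variable, diversity and joining segments of the genome in the thymus, a reaction started by the Rag1 and Rag2 recombinase. Most T cells of the lung carry an alpha and a beta chain, and a smaller set carries a gamma and a delta chain. Each cell keeps the segments it joined, so RNA of variable segments in a tissue reads out how many T cells of each kind it holds and how much receptor RNA each makes. In bulk tissue, fewer cells and less RNA per cell cannot be told apart.

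The segments on which the results turn are shown first. The last 150 bases of each coding part are given from the GENCODE M21 transcripts on build GRCm38, 5′ to 3′. Capitals mark the end from the codon of the conserved second cysteine, where the germline segment is joined to its partners and the third complementarity-determining region begins. Trbv13-2 (chr6:41121396-41121832, plus strand) was the most used beta segment, Tcrg-V6 (chr13:19190356-19190929, plus strand) and Trdv4 (chr14:54074905-54075515, plus strand) led the gamma and delta chains in WT PBS, and Trgv2 (chr13:19336573-19337167, minus strand) led the gamma chain in DJ-1 KO OVA.
Trbv13-2: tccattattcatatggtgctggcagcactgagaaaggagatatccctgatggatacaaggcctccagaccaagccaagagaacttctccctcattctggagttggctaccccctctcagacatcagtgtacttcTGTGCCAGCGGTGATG
Tcrg-V6: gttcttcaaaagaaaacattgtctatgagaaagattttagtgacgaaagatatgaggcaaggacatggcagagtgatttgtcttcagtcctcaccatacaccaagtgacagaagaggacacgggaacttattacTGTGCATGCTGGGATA
Trdv4: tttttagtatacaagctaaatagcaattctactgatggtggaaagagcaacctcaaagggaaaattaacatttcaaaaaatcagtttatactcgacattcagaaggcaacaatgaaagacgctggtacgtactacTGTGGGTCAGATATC
Trgv2: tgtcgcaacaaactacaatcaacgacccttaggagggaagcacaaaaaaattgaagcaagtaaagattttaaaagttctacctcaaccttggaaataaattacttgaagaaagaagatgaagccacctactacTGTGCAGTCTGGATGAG

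The alpha locus of C57BL/6J holds near-identical copies, named with a D or an N after the family number, and this set how far single alpha segments could be read. Trav12d-1 (chr14:52844465-52845041) was listed at 0 and Trav12n-1 (chr14:53155512-53156088) had 1 read in all. Their coding parts were the same letter for letter, so only the first is printed. Trav12-1 (chr14:53538191-53538738), which had values in all 9 libraries, differed from them at 17 positions. The last 250 bases of the coding parts hold 15 of these, shown in capitals, with all 3 genes on the plus strand.
Trav12-1: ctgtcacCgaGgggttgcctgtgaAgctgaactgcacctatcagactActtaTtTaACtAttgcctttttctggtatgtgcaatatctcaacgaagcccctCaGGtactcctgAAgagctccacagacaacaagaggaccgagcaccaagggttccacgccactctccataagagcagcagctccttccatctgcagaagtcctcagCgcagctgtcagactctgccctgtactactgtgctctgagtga
Trav12d-1: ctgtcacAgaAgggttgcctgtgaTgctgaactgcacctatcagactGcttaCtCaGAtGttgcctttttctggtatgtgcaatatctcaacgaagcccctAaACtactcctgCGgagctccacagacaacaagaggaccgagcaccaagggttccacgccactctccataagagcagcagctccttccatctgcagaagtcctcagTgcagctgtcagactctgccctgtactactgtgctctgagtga

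The 46 alpha genes without a copy letter, 1 of them at 0, held 77.2% of all alpha reads. The 34 D copies, 13 of them at 0, held 8.87%, and the 28 N copies, 8 of them at 0, held 12.6%. Alpha here and in all sums takes in the segments shared with delta. Windows of 100 bases were compared over all variable segment transcripts. In the 24 genes at 0 a median of 0% of windows was found in no other variable segment, and 18 of the 24 had another gene with the same coding part. In the 120 members the median was 91.9%, and 14 had such a copy. All 22 beta segments stood at 100%. The sources used here do not say how the authors treated reads that fit several places, so a value of 0 for a copied gene says nothing on its use.

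**Figure D1:**
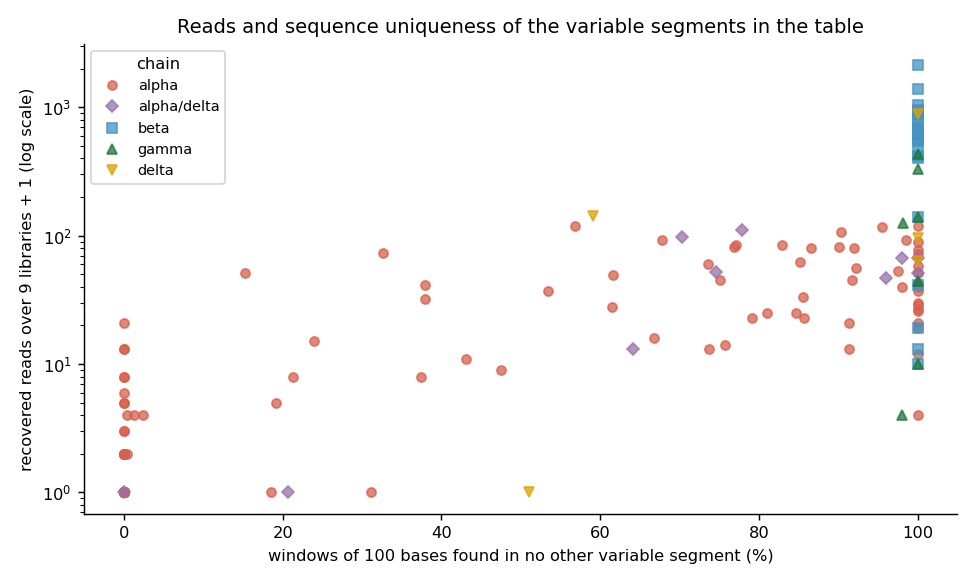
Each point is 1 of the 144 variable segment genes, with the share of its 100-base windows found in no other variable segment (horizontal axis, percent) and its recovered reads over the 9 libraries plus 1 (vertical axis, log scale). The alpha genes at the left edge, which share every window with another segment, have few or no reads, and the 22 beta segments all stand at 100%.

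Reads behind each value were recovered from the FPKM and gene lengths. The libraries held 20812192 to 29080130 reads in all. Of these, the members took 19660 over the 9 libraries: 14115 on beta, 3282 on alpha, 1182 on delta and 1081 on gamma segments. Beta segments were therefore measured far more precisely than single alpha segments, of which only 47 of 79, and 7 of the 8 shared ones, passed the filter for testing at a mean of 0.2 FPKM. In all, 82 members passed it and 38 did not. Trav7-6 passed with a mean of 0.217 FPKM and Trav6d-5 missed it with 0.199 FPKM.

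Library DJ1_KO_OVA_263 stood apart from the other 8 in genes of immature T cells. Rag1, of the recombinase, stood at 79.3 FPKM in DJ1_KO_OVA_263, against 0.0371 to 0.863 FPKM in the other 8. Dntt, the terminal transferase that adds bases at the joints, stood at 121 FPKM, against 0.482 to 4.02 FPKM. Ptcra, the invariant partner of a new beta chain, stood at 6.48 FPKM, against 0 to 0.231 FPKM, and Rag2 at 3.23 FPKM, against 0 to 0.0854 FPKM. Of 6 thymic genes listed, 5 were highest in DJ1_KO_OVA_263, Cd1d1 being the exception, and the 6 summed to 228 FPKM there, against 6.56 to 10.9 FPKM elsewhere. Of 17 genes of T cell signalling, 15 were highest in DJ1_KO_OVA_263, with a sum of 847 FPKM, against 229 to 369 FPKM elsewhere. Over the 17716 genes with a mean of at least 0.2 FPKM, 20.7% were highest in that library. Cd8a, a coreceptor chain, stood at 83.0 FPKM, against 5.13 to 7.61 FPKM. The part of these cells in the results that follow was not tested, and calls between the groups are given with and without DJ1_KO_OVA_263.

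**Figure D2:**
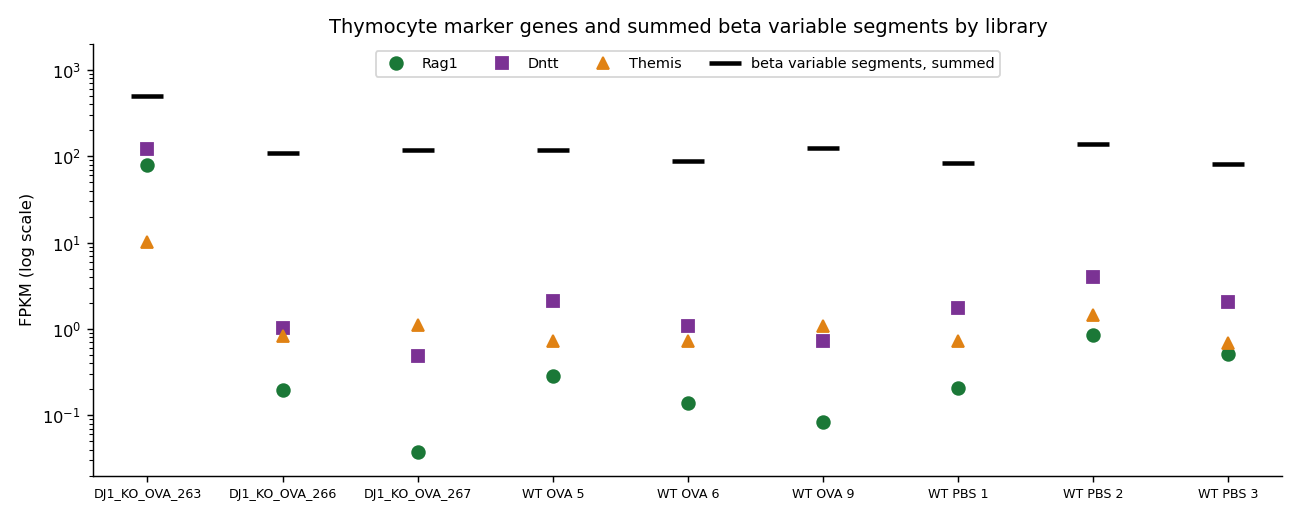
FPKM on a log scale of Rag1, Dntt and Themis, and of the beta variable segments summed (bars), in each of the 9 libraries. Library DJ1_KO_OVA_263 holds the highest value of all 4, with Dntt at 121 FPKM and the beta sum at 496 FPKM.

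Beta segments were the most abundant, and their level separated DJ1_KO_OVA_263 from the rest rather than the groups from one another. Their summed level was 496, 108 and 119 FPKM in DJ-1 KO OVA (DJ1_KO_OVA_263, DJ1_KO_OVA_266 and DJ1_KO_OVA_267), against 120, 88.3 and 124 FPKM in WT OVA and 83.0, 139 and 80.8 FPKM in WT PBS. DJ1_KO_OVA_266 and DJ1_KO_OVA_267 lay inside the range of the 6 wild-type libraries. The mean of DJ-1 KO OVA was 2.18-fold that of WT OVA with DJ1_KO_OVA_263 and 1.03-fold without it. Of the 22 beta segments, 21 were highest in DJ1_KO_OVA_263. Over all 120 members this held for 74, of which 5 had reads in that library alone. Of the 17716 genes with a mean of at least 0.2 FPKM, 20.7% were highest in DJ1_KO_OVA_263. In the 19 beta segments with a mean of at least 0.2 FPKM, the level in DJ1_KO_OVA_263 was 2.51 to 9.15 times the median of the other 8, with a median ratio of 5.11.

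Trbv13-2 led the beta chain in all 3 groups. This segment, of the family once called V beta 8, was the most used segment in 8 of 9 libraries, and Trbv16 was in WT OVA library 5. Trbv13-2 stood at 89.0, 23.9 and 18.5 FPKM in DJ-1 KO OVA, against 18.2, 12.7 and 16.6 FPKM in WT OVA and 16.0, 20.8 and 13.9 FPKM in WT PBS. As a share of beta reads it held 11.6% to 19.3% over the 9 libraries, and 15.7% in DJ1_KO_OVA_263. The 3 Trbv13 segments together held 25.2%, 29.4% and 24.3% of beta reads in DJ-1 KO OVA, against 27.8%, 27.3% and 23.3% in WT OVA and 31.3%, 25.2% and 27.2% in WT PBS. In DJ1_KO_OVA_263, 17 of 22 shares lay within the range of the other 8 libraries. Trbv15, Trbv12-1 and Trbv17 lay above it, and Trbv16 and Trbv13-3 below it. Trbv15 held 7.36% of beta reads in DJ1_KO_OVA_263, against 2.58% to 5.42% in the other 8. No beta segment passed the test in any comparison (limma, adjusted p below 0.05). In DJ-1 KO OVA against WT OVA, 2 of the 19 tested had an unadjusted p below 0.05, against 35.2% of all genes.

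**Figure D3:**
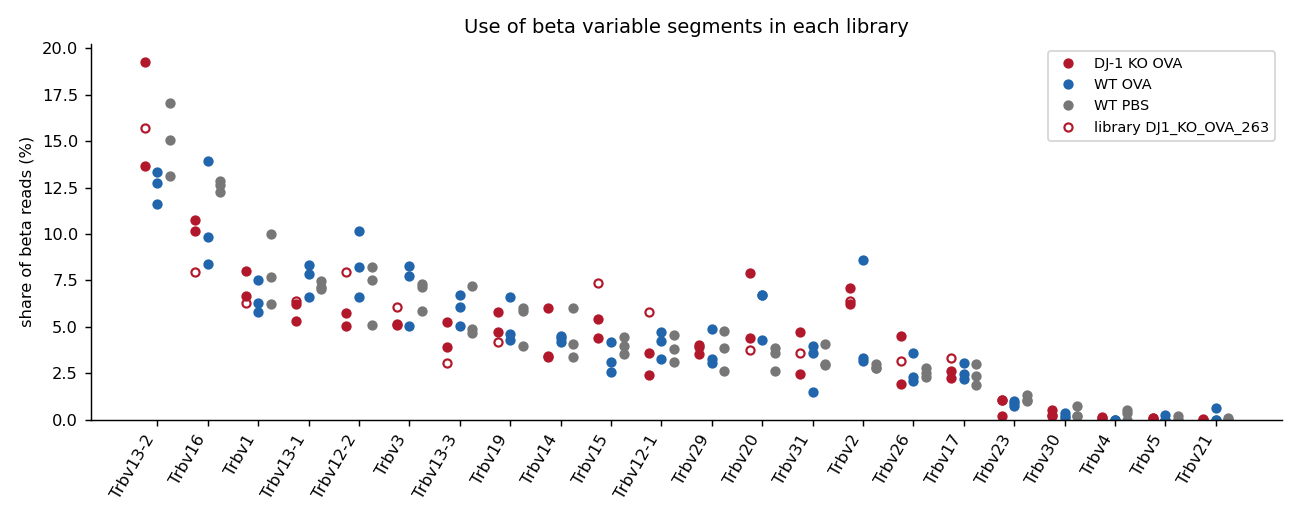
Share of each of the 22 beta segments in the beta reads of a library (percent), with 1 point per library, DJ-1 KO OVA left, WT OVA in the middle and WT PBS right of each name; the open point is DJ1_KO_OVA_263. Trbv13-2 holds 11.6% to 19.3%, and in DJ1_KO_OVA_263 the segments stand in much the same order, Trbv15 at 7.36% being above its range elsewhere.

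Summed alpha levels were higher in all 3 DJ-1 KO OVA libraries than in any wild-type library. Single segments seldom were: 4 of 47 alpha segments and 3 of 7 shared ones were higher than in WT OVA without overlap. The share was 18.4% of all genes. Lower without overlap were 1 alpha and 0 shared segments, against 18.8%. Their sums were 95.4, 37.2 and 48.8 FPKM in DJ-1 KO OVA, against 34.7, 13.3 and 29.8 FPKM in WT OVA and 17.4, 23.4 and 20.5 FPKM in WT PBS. The groups of DJ-1 KO OVA and WT OVA did not overlap, though DJ1_KO_OVA_266 and WT OVA library 5 lay close together. The DJ-1 KO OVA mean was 2.33-fold that of WT OVA, and 1.66-fold without DJ1_KO_OVA_263. The segments shared with delta, summed alone, were 3.12-fold higher in DJ-1 KO OVA than in WT OVA, and 2.14-fold without DJ1_KO_OVA_263. Set against beta, alpha reads per 100 beta reads numbered 19.4, 34.7 and 41.2 in DJ-1 KO OVA, against 29.0, 15.5 and 23.8 in WT OVA and 21.5, 17.1 and 25.6 in WT PBS. DJ1_KO_OVA_266 and DJ1_KO_OVA_267 were above all 6 wild-type libraries in this ratio, and DJ1_KO_OVA_263 lay within their range. The constant segments ran alike, though by little in DJ1_KO_OVA_266. As a share of Trbc1 and Trbc2 together, Trac stood at 40.7% in DJ1_KO_OVA_267, 22.6% in DJ1_KO_OVA_266 and 13.8% in DJ1_KO_OVA_263. The 6 wild-type libraries stood at 12.1% to 20.7%. These ratios were chosen after the values were seen and carry no test.

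**Figure D4:**
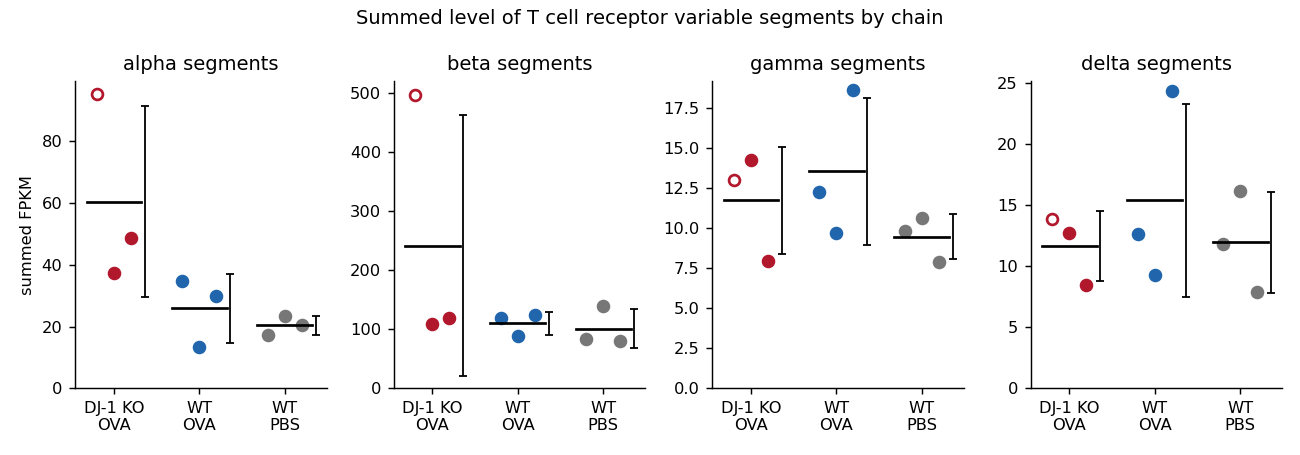
Summed FPKM of the variable segments of each chain in each library, by group; lines are means and bars SD (n = 3 each), and the open circle is DJ1_KO_OVA_263. The 3 alpha sums of DJ-1 KO OVA, 37.2 to 95.4 FPKM, lie above all 6 wild-type ones, while 2 of its 3 beta sums lie among them.

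In the test of DJ-1 KO OVA against WT OVA, 7 of 82 members rose and 1 fell (limma, adjusted p below 0.05 over all genes). Over the 17716 genes tested, 5.93% were called higher and 8.24% lower, 14.2% in either direction, so the members' share of higher calls, 8.54%, stood close to the background and their share of lower calls below it. Without overlap between the groups, 9 members were higher and 2 lower, against 18.4% and 18.8% of all genes. Most differences were positive, in 76 of 82, with a median of 0.62 on the log2(FPKM + 0.5) scale, against 0.00 over all genes. This is a description only, because segments measured in the same libraries are not independent. Moreover, 11 of the 82 averaged under 0.2 FPKM in the wild-type libraries. They passed the filter only through DJ-1 KO OVA, which favoured a positive sign. Without DJ1_KO_OVA_263, 3 of 78 were higher and none lower, against 3.82% and 3.43% of 17609 genes, and the median was 0.27 with 61 positive. In that fit, 9 members were higher and 6 lower without overlap, against 24% and 23% of genes. The count also turned on other libraries: it was 18 without DJ1_KO_OVA_266, 1 without DJ1_KO_OVA_267, 1 without WT OVA library 5, 0 without WT OVA library 6, 1 without WT OVA library 9 and 4 without WT PBS library 1, whose group shares the estimate of spread.

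Of the 7 that rose, 4 were alpha segments, 2 were shared by alpha and delta, and 1 was a delta segment. Trav4-4-dv10, which can serve in either chain, stood at 3.70, 1.64 and 2.49 FPKM in DJ-1 KO OVA, against 0, 0.363 and 0.986 FPKM in WT OVA and 0.778, 0.945 and 0.451 FPKM in WT PBS. All 3 knockout libraries lay above all 6 wild-type ones. The count of 0 allows up to 3 reads, or 0.433 FPKM, counting error only. Its log2 difference was 1.80 ± 0.38 (SE; limma, adjusted p = 0.020), and 1.55 without DJ1_KO_OVA_263 (adjusted p = 0.048). It passed in 12 of 16 alternative settings, and by limma-voom on the recovered reads with an adjusted p of 0.027.

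Trav12-2 stood at 2.52, 2.29 and 0.672 FPKM in DJ-1 KO OVA, against 0.122, 0.717 and 0.239 FPKM in WT OVA and 0.439, 0.572 and 0.458 FPKM in WT PBS. Its value in DJ1_KO_OVA_267 lay just under the highest WT OVA value (limma, log2 difference 1.38 ± 0.36 SE, adjusted p = 0.036). The other 4 alpha or shared segments rested on few reads. Trav8-1 averaged 1.03 ± 0.279 FPKM in DJ-1 KO OVA and 0.0887 ± 0.154 FPKM in WT OVA (SD, n = 3 each; limma, adjusted p = 0.031), but reached 1.09 FPKM in WT PBS library 3. Trav8d-2 averaged 0.813 ± 0.360 FPKM in DJ-1 KO OVA and 0.103 ± 0.178 FPKM in WT OVA (SD, n = 3 each; limma, adjusted p = 0.032). Trav7-1, with 18 reads in all 9 libraries, had an adjusted p of 0.034 (limma), and Trav14d-3-dv8, with 66 reads, one of 0.044. A count of 0 allows up to 3 reads, counting error only. That is 0.465 to 0.476 FPKM for Trav8-1, 0.290 to 0.453 FPKM for Trav8d-2 and 0.389 to 0.464 FPKM for Trav7-1. By limma-voom, Trav12-2, Trav8d-2, Trav7-1 and Trav14d-3-dv8 missed the threshold with adjusted p-values of 0.051, 0.051, 0.064 and 0.087. Without DJ1_KO_OVA_263, Trav8-1, Trav8d-2, Trav12-2 and Trav14d-3-dv8 also missed it, at 0.076 to 0.10, and Trav7-1 fell under the filter and was not tested. Trav7-1 and Trav8d-2 were among 11 of the 82 members that averaged under 0.2 FPKM over the 6 wild-type libraries. Such members reached the filter only through DJ-1 KO OVA, so their calls are no support for a difference.

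Trav3-1 ran against the pattern of DJ1_KO_OVA_263. It stood at 0.377, 1.10 and 2.97 FPKM in DJ-1 KO OVA, against 0.406, 0.227 and 0.132 FPKM in WT OVA and 0, 0 and 0.253 FPKM in WT PBS. DJ1_KO_OVA_266 and DJ1_KO_OVA_267 were above all wild-type values, and DJ1_KO_OVA_263 was not. A count of 0 for Trav3-1 allows up to 3 reads, or 0.365 to 0.380 FPKM, counting error only. Its adjusted p against WT OVA was 0.076 with DJ1_KO_OVA_263 and 0.022 without it (limma). Against WT PBS it rose by 1.56 ± 0.42 (log2, SE; limma, adjusted p = 0.045), and by 2.04 without DJ1_KO_OVA_263 (adjusted p = 0.0076), though limma-voom gave 0.058. It also averaged under 0.2 FPKM in the wild-type libraries and reached the filter only through DJ-1 KO OVA.

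Segments of invariant T cells rested on few reads. Trav11, which natural killer T cells use with a fixed joint, had 1 read, in DJ1_KO_OVA_267. Its copy Trav11d had 4 reads, all in DJ1_KO_OVA_263. Only 0.41% of the 100-base windows of Trav11 and 0% of those of Trav11d were found in no other variable segment. These counts thus say little on the use of either gene. Trav1, used by mucosal-associated invariant T cells, had 39 reads and stood at 0.548, 0.685 and 1.87 FPKM in DJ-1 KO OVA, against 0, 0 and 0.685 FPKM in WT OVA and 0.252, 0 and 0.175 FPKM in WT PBS. DJ1_KO_OVA_267 was the highest, and the difference from WT OVA had an adjusted p of 0.077 (limma). A count of 0 for Trav1 allows up to 3 reads, or 0.353 to 0.421 FPKM, counting error only. Of 6 other genes tied to invariant T cells, 0 passed against WT OVA. Against WT PBS, 1 of the 6 rose, the chemokine receptor Cxcr6 (limma, adjusted p = 0.039, and 0.033 without DJ1_KO_OVA_263).

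Gamma and delta variable sums of DJ1_KO_OVA_263 lay within the range of the other libraries. Gamma sums were 13.0, 14.3 and 7.95 FPKM in DJ-1 KO OVA, against 12.3, 9.70 and 18.7 FPKM in WT OVA and 9.85, 10.7 and 7.91 FPKM in WT PBS. Delta sums were 13.9, 12.8 and 8.44 FPKM in DJ-1 KO OVA, against 12.6, 9.28 and 24.3 FPKM in WT OVA and 11.8, 16.2 and 7.93 FPKM in WT PBS. The groups overlapped throughout, and the ratio of DJ-1 KO OVA to WT OVA means, 0.867 for gamma and 0.758 for delta, is a drop on the deposited scale that turned to a gain when libraries were scaled to equal FPKM sums. Without DJ1_KO_OVA_263 the ratios were 0.819 for gamma and 0.687 for delta. DJ1_KO_OVA_263 was 1.27 times the median of the other 8 for gamma and 1.14 times for delta, against 3.58 times for alpha and 4.36 times for beta. The constant segments were highest there. Those of gamma summed to 34.6 FPKM, against 11.1 to 26.3 FPKM in the other 8. Trdc, the delta constant segment, stood at 8.52 FPKM, against 1.43 to 3.49 FPKM. Gamma and delta reads per 100 alpha and beta reads numbered 5.0, 20.8 and 11.0 in DJ-1 KO OVA, against 18.5, 21.2 and 31.0 in WT OVA and 24.0, 18.4 and 17.3 in WT PBS.

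Trgv2 led the gamma chain in all 3 DJ-1 KO OVA libraries (50.3% to 62.9% of gamma reads) and in WT OVA library 5. Both segments held 37.1% of gamma reads in WT OVA library 6, and Tcrg-V6 led in WT OVA library 9 and in all 3 WT PBS libraries. Tcrg-V6 and Trdv4 together form the fixed receptor of an early-born, interleukin-17-making population known from mouse lung and other tissues. Tcrg-V6 stood at 0.685, 3.40 and 1.25 FPKM in DJ-1 KO OVA, against 4.18, 3.71 and 9.59 FPKM in WT OVA and 4.86, 4.60 and 3.07 FPKM in WT PBS. All 3 knockout values lay below all 3 WT OVA values, DJ1_KO_OVA_266 by little. It fell by 1.54 ± 0.44 on the log2 scale (SE; limma, adjusted p = 0.045), the only member called lower. The adjusted p was 0.039 by limma-voom and 0.12 without DJ1_KO_OVA_263, where the difference was -1.16. It passed in 7 of 16 alternative settings, with adjusted p-values of 0.006 to 0.15.

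Trdv4 was the main delta segment in every library. It stood at 4.19, 9.16 and 6.17 FPKM in DJ-1 KO OVA, against 11.5, 7.37 and 20.3 FPKM in WT OVA and 9.07, 14.4 and 6.59 FPKM in WT PBS. The groups overlapped, and the log2 difference from WT OVA, -0.90 ± 0.40 (SE), had an adjusted p of 0.13 (limma). Its share of delta reads was 33.0%, 73.9% and 75.3% in DJ-1 KO OVA, against 91.6%, 80.6% and 84.7% in WT OVA and 78.9%, 90.3% and 84.9% in WT PBS. Every knockout share was below every wild-type share. Blk, a kinase of B cells that this gamma-delta population also uses, fell by 0.91 on the log2 scale against WT OVA (limma, adjusted p = 0.030), and 5830411N06Rik rose (adjusted p = 0.046), while the other 6 of 8 genes tested from a gamma-delta list, Il17a, Il23r and Sox13 among them, did not pass. Without DJ1_KO_OVA_263, the adjusted p-values of Blk and 5830411N06Rik were 0.073 and 0.071. Of 7 B cell genes 3 were called lower, against 8.24% of all genes. Of these, 1 was also called without DJ1_KO_OVA_263, against 3.43% of all genes. The part of B cells in the Blk value was not tested.

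Trgv2, which lies between the constant segments Tcrg-C2 and Tcrg-C4 on chromosome 13, ran the other way. It stood at 7.52, 6.47 and 3.66 FPKM in DJ-1 KO OVA, against 4.99, 3.20 and 3.62 FPKM in WT OVA and 2.0, 1.98 and 1.72 FPKM in WT PBS. All 6 libraries of challenged mice were above the 3 saline libraries, and the 2 challenged groups overlapped. Against WT PBS it rose by 1.36 ± 0.26 in DJ-1 KO OVA (log2, SE; limma, adjusted p = 0.013), with an adjusted p of 0.027 both by limma-voom and without DJ1_KO_OVA_263, and in 15 of 16 alternative settings. In WT OVA against WT PBS the difference was 0.87 ± 0.26, with an unadjusted p of 0.007 and an adjusted p of 0.73 (limma). In DJ-1 KO OVA against WT OVA it was 0.49 ± 0.26, with an adjusted p of 0.20. Of these 2 constant segments, Tcrg-C4 averaged 4.71 ± 1.80 FPKM in DJ-1 KO OVA and 1.97 ± 0.527 FPKM in WT OVA (SD, n = 3 each). It rose (limma, adjusted p = 0.042). Tcrg-C2 stood at 15.5, 7.55 and 5.77 FPKM in DJ-1 KO OVA, against 6.38, 4.58 and 5.62 FPKM in WT OVA. Those groups overlapped. Which constant segment the Trgv2 reads were joined to was not tested. Trgv2 reads per 100 Tcrg-V6 reads numbered 1270, 221 and 338 in DJ-1 KO OVA, against 138, 100 and 43.8 in WT OVA and 47.7, 50 and 65 in WT PBS. The 3 knockout values were the highest of the 9, and this ratio was also chosen after the values were seen.

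Among the other gamma segments, Tcrg-V1, common in spleen and blood, averaged 1.92 ± 0.639 FPKM in DJ-1 KO OVA, 1.38 ± 0.147 FPKM in WT OVA and 1.12 ± 0.220 FPKM in WT PBS (SD, n = 3 each). Tcrg-V4 was at 1.02 to 2.63 FPKM in WT OVA and inside 0.879 to 2.06 FPKM in the other groups. Tcrg-V5, the segment of epidermal T cells of the skin, was at 0.341 to 0.497 FPKM in DJ-1 KO OVA, against 0.153 to 1.04 FPKM in WT OVA and 0.668 to 1.24 FPKM in WT PBS, and passed no comparison. Tcrg-V7, the main segment of intestinal epithelium, and Tcrg-V3 were under the filter, with values above 0 in 3 and 2 libraries.

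**Figure D5:**
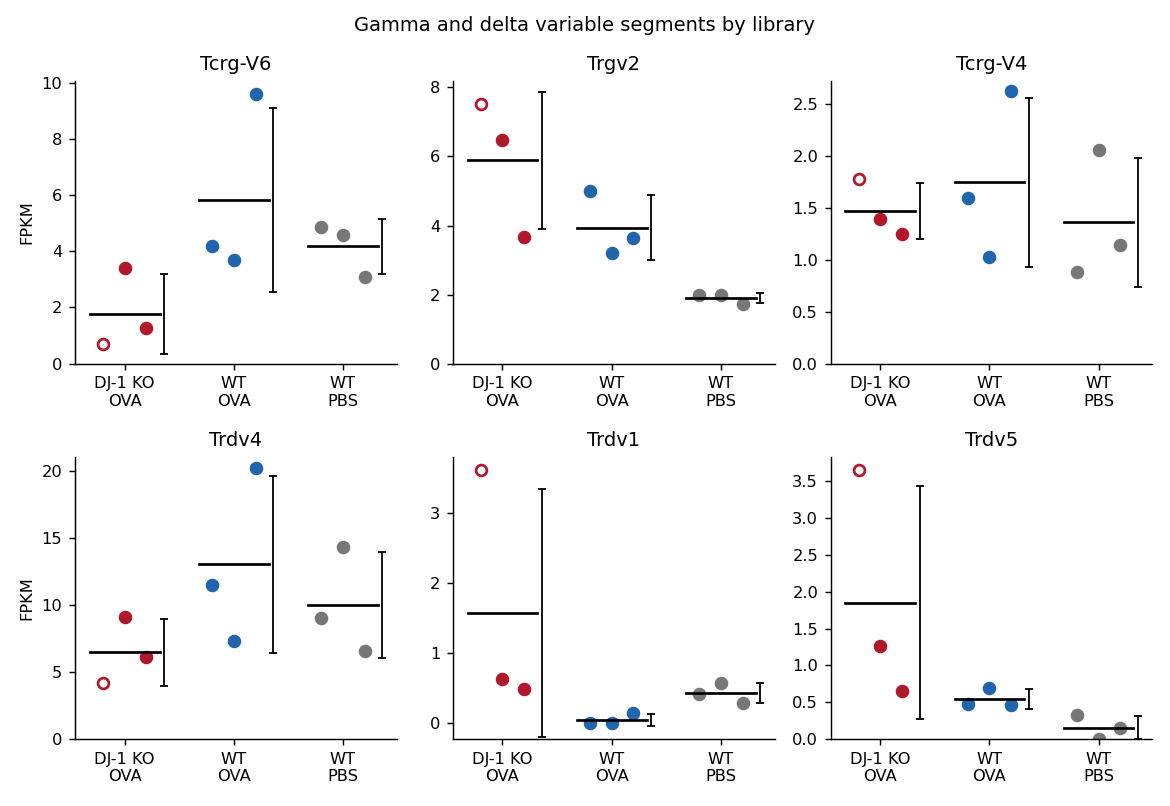
FPKM of 3 gamma (top row) and 3 delta segments (bottom row) in each library, by group; lines are means and bars SD (n = 3 each), and the open circle is DJ1_KO_OVA_263. Tcrg-V6 is lower in the 3 DJ-1 KO OVA libraries than in WT OVA, Trgv2 is at 1.72 to 2.0 FPKM in WT PBS and above that elsewhere, and Trdv1 and Trdv5 stand highest in DJ1_KO_OVA_263.

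Among the minor delta segments, Trdv1 and Trdv5 were highest in DJ1_KO_OVA_263. Trdv1 stood at 3.62, 0.628 and 0.485 FPKM in DJ-1 KO OVA, against 0, 0 and 0.151 FPKM in WT OVA and 0.417, 0.578 and 0.290 FPKM in WT PBS. DJ1_KO_OVA_263 held 42 of its 62 reads, and a count of 0 allows up to 3 reads, or 0.389 to 0.464 FPKM. It rose against WT OVA by 1.61 ± 0.45 (log2, SE; limma, adjusted p = 0.042), and without DJ1_KO_OVA_263 by 0.95 (adjusted p = 0.035). Against WT PBS it had an adjusted p of 0.26. Trdv5, which lies at the 3′ end of the delta constant segment in the opposite orientation and joins by inversion, stood at 3.65, 1.26 and 0.653 FPKM in DJ-1 KO OVA, against 0.476, 0.697 and 0.464 FPKM in WT OVA and 0.321, 0 and 0.149 FPKM in WT PBS. It rose against WT PBS by 1.66 ± 0.40 (log2, SE; limma, adjusted p = 0.031), and by 1.15 without DJ1_KO_OVA_263 (adjusted p = 0.033). Trdv5 overlaps Trdc on the other strand, and the constant segment Trdc was at 8.52 FPKM in DJ1_KO_OVA_263, against 1.43 to 3.49 FPKM in the other 8, so reads of the pair cannot be told apart without strand. Trdv2-2 stood at 1.13 to 2.41 FPKM in DJ-1 KO OVA, against 0.656 to 3.46 FPKM in WT OVA and 0.901 to 2.0 FPKM in WT PBS. Tcrg-V4, Tcrg-V5, Tcrg-V6 and Tcrg-V7 overlap an antisense RNA as well, as do Trdv4 and Trdv2-2.

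Variable and constant reads kept near one ratio for beta. Beta variable reads per 100 constant reads numbered 30.3, 27.3 and 37.5 in DJ-1 KO OVA, against 31.3, 30.4 and 26.8 in WT OVA and 30.7, 26.6 and 33.3 in WT PBS. For delta they numbered 17.1, 62.5 and 53.3 in DJ-1 KO OVA, against 71.3, 73.2 and 78.9 in WT OVA and 45.4, 55.1 and 38.3 in WT PBS. DJ1_KO_OVA_263 thus held the lowest delta ratio of the 9, and its gamma ratio of 18.3 was also the lowest, against 22.1 to 33.1 elsewhere. Trac, the alpha constant segment, stood at 123, 49.2 and 69.9 FPKM in DJ-1 KO OVA, against 32.5, 22.1 and 38.0 FPKM in WT OVA and 25.6, 34.5 and 27.3 FPKM in WT PBS, and rose against WT OVA (limma, log2 difference 1.30 ± 0.33 SE, adjusted p = 0.032). Of 7 constant segments tested, 2 rose in that comparison, against 5.93% of all genes, and 0 did without DJ1_KO_OVA_263, against 3.82%.

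The number of alpha segments with a read was 76, 61 and 65 in DJ-1 KO OVA, against 55, 44 and 52 in WT OVA and 46, 50 and 60 in WT PBS. Thinned to 120 alpha reads a library, the expected number was 48.7, 46.8 and 46.5 in DJ-1 KO OVA, against 45.9, 44.0 and 43.4 in WT OVA and 43.9, 44.0 and 49.1 in WT PBS. At one depth the groups thus overlapped, and 1 saline library held the highest value. Reads fell on 19 to 22 of the 22 beta segments in each library. The leading alpha segment differed from library to library and held 4.88% to 7.94% of alpha reads.

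Challenge of wild-type mice left the variable segments without a call. In WT OVA against WT PBS, 0 of 82 members passed (limma; 3 had an unadjusted p below 0.05, against 6.47% of all genes, and limma-voom also called 0), and 1 gene of 17716, or 0.00564%, was called. The median log2 difference was 0.13, against 0.00 over all genes. Without overlap, 5 members were higher and 2 lower, against 7.25% and 7.52% of all genes. The ratio of group means was 1.27 for alpha, 1.10 for beta, 1.43 for gamma and 1.29 for delta sums, each within overlapping groups. In DJ-1 KO OVA against WT PBS, which shares its libraries with both other comparisons, 5 of 82 members rose and 0 fell, against 4.07% higher and 4.47% lower of all genes, or 8.54% in either direction, and 30 had an unadjusted p below 0.05, against 26.4% of all genes. The 5 were Trgv2, Trdv5, Trav3-1, Trav8d-2 (adjusted p = 0.036) and Trav14d-3-dv8 (limma, adjusted p = 0.038). Without DJ1_KO_OVA_263, 3 of 78 rose, against 4.45% of 17609 genes: Trgv2, Trdv5 and Trav3-1. Without overlap, 19 members were higher and 1 lower than in WT PBS, against 12.7% and 12.9% of all genes. Without DJ1_KO_OVA_263 these counts were 18 and 2, against 17.9% and 17.4% of genes. The count of 5 became 19 without DJ1_KO_OVA_266, 3 without DJ1_KO_OVA_263, 1 without WT PBS library 1, 2 without WT PBS library 2 and 3 without WT PBS library 3.

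Other genes of T cells and their neighbours were read from lists. In DJ-1 KO OVA against WT OVA, 7 of 17 T cell signalling genes rose and 0 fell, against 5.93% of all genes called higher, and 4 rose without DJ1_KO_OVA_263. Against WT PBS 3 of the 17 rose, against 4.07% of all genes, and Cd4 alone did without DJ1_KO_OVA_263 (limma, adjusted p = 0.044). Cd6, a surface receptor of T cells, averaged 8.97 ± 3.66 FPKM in DJ-1 KO OVA and 3.13 ± 1.00 FPKM in WT OVA (SD, n = 3 each; limma, adjusted p = 0.019), and 0.032 without DJ1_KO_OVA_263. Fyn, a kinase of the receptor, averaged 28.0 ± 6.33 FPKM in DJ-1 KO OVA and 12.4 ± 1.19 FPKM in WT OVA (SD, n = 3 each; limma, adjusted p = 0.019), and 0.043 without DJ1_KO_OVA_263. Cd4, the coreceptor of helper T cells, was also called with and without DJ1_KO_OVA_263. Of the 6 thymic genes 0 passed in any comparison (limma). Type 2 innate lymphoid cells carry no rearranged receptor on their surface. Of 7 genes of these cells, 4 were called higher than in WT OVA, against 5.93% of all genes: Gata3, Il1rl1, Il17rb and Il7r. Without DJ1_KO_OVA_263, 3 were, against 3.82%. The 7 summed to 106 to 162 FPKM in DJ-1 KO OVA, against 81.9 to 113 FPKM in WT OVA and 59.5 to 63.3 FPKM in WT PBS. Areg, which was not called, alone stood at 52.9, 58.0 and 76.5 FPKM in DJ-1 KO OVA and 68.0, 48.5 and 47.0 FPKM in WT OVA. Of 7 B cell genes 3 fell against WT OVA and 3 against WT PBS, where 8.24% and 4.47% of all genes were called lower. Without DJ1_KO_OVA_263, Cd79b alone fell against WT OVA (limma, adjusted p = 0.043), and 0 passed against WT PBS (limma, lowest adjusted p = 0.056). The B cell genes had sums of 93.2 to 233 FPKM in DJ-1 KO OVA, against 279 to 372 FPKM in WT OVA and 309 to 359 FPKM in WT PBS. Cd79a and Cd79b made up most of these sums. Blnk and Cd22 were higher in DJ1_KO_OVA_266 and DJ1_KO_OVA_267 than in any WT OVA library. None of 7 NK cell genes passed, with sums of 164 to 260 FPKM in DJ-1 KO OVA, against 300 to 600 FPKM in WT OVA and 304 to 586 FPKM in WT PBS. Gzma made up most of these sums, at 202, 154 and 114 FPKM in DJ-1 KO OVA and 348, 246 and 507 FPKM in WT OVA. Ncr1, Klre1 and Klra8 also lay below their WT OVA values, while Prf1 and Eomes reached higher in DJ-1 KO OVA than in WT OVA. Of 6 lung epithelial and endothelial markers, Sftpc and Scgb1a1 far exceeded the other 4. Sftpc, the surfactant protein of alveolar epithelium, stood at 5089 to 11646 FPKM in DJ-1 KO OVA, against 30215 to 38446 FPKM in WT OVA and 22975 to 39155 FPKM in WT PBS. Cdh5, the cadherin of endothelium, stood at 1.61 FPKM in DJ1_KO_OVA_263, against 5.52 to 21 FPKM in the other 8, and Pecam1, also endothelial, at 9.42 FPKM, against 12.6 to 25.7 FPKM. Cdh1, the cadherin of epithelium, stood at 50.9 to 84.3 FPKM in DJ-1 KO OVA, against 23.6 to 39.8 FPKM in WT OVA and 22.9 to 35.0 FPKM in WT PBS, and was the 1 marker of the 6 that passed against WT OVA (limma, adjusted p = 0.036, and 0.044 without DJ1_KO_OVA_263). In WT OVA against WT PBS, 0 genes of these lists passed. The part of these cell mixtures in the segment values was not tested.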

How the data were processed

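RNA was sequenced from 9 lung libraries. Trimmomatic, HISAT2, HTSeq and build GRCm38.p6 are named per the submitters' processing notes; versions, roles and whether counting used strand are not stated there. The authors deposited FPKM per gene with gene lengths, per the file headers. FPKM times length was a whole multiple of 1 step for 100% of values above 0 in every library, within 0.01 reads, so reads per gene were recovered; the deposited FPKM were divided by sizes 0.890 to 1.21 times the recovered totals.

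Genes with a mean of at least 0.2 FPKM were tested as log2(FPKM + 0.5) with limma 3.58.1 (limma-trend, R 4.3.3) in 1 fit of 3 groups, two-sided, with Benjamini-Hochberg adjustment over all genes and a threshold of 0.05. The log scale understates changes of low genes. An exact permutation test of 3 against 3 cannot go below 0.1 and was not used. Chain sums, shares and ratios carry no test. The fit was tested on simulated reads, with no outlying library and changes only in genes of at least 1 FPKM. That test does not bear on calls of low segments or on the part of DJ1_KO_OVA_263. Alternatives were pseudocounts of 0.1 and 1, other filters and scalings, limma-voom on recovered reads with TMM scaling, and leaving out each library. A rule set which segments could be named. It took the 6 highest alpha and beta segments, every gamma, delta and alpha/delta segment, called segments and the leading segment of each library. It also took Trav1, Trav11 and Trav11d, and from each list up to 4 genes with the smallest p. The text does not name them all: of the alpha/delta segments only the called ones are named, and several of the highest and leading segments are not. These omissions, and the values of other segments and genes, were chosen after the values were seen. The members and lists were chosen with earlier results of these data known, and 1 gene of the lists is not reported here. Sequences are from GENCODE M21, whose positions equal those deposited for all 144 genes.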

Additional observations from a re-analysis of the deposited data

Results flagged for a closer look

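Segments outside the variable genes also had values in DJ1_KO_OVA_263 above those of the saline libraries. The 34 variable pseudogenes summed to 7.15 FPKM in DJ1_KO_OVA_263, 2.35 FPKM in DJ1_KO_OVA_266 and 0.943 FPKM in DJ1_KO_OVA_267. Against these stood at most 1.19 FPKM in WT OVA and 1.28 FPKM in WT PBS. The 51 alpha joining segments summed to 140 FPKM in DJ1_KO_OVA_263 and to at least 19.1 FPKM in the other DJ-1 KO OVA libraries, against 3.56 to 9.46 FPKM in WT OVA and 3.09 to 5.61 FPKM in WT PBS. These sums rested on few reads, and joining segments are short, so 1 read weighs much in FPKM. The joining segments had 297, 28 and 34 reads in DJ-1 KO OVA, against 4 to 12 in each wild-type library. The pseudogenes had 81, 19 and 8 reads in DJ-1 KO OVA, against 4 to 9 in each wild-type library. No cause was tested for either value.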

How the results depend on the processing

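Calls among the members in DJ-1 KO OVA against WT OVA, 8 as reported, numbered 1 with no filter, 2 at a mean of at least 1 FPKM, 19 with equal FPKM sums and 4 by limma-voom, and 0 to 18 leaving out each library. Over all genes the 2510 calls became 645 with no filter, 5034 with equal sums and 285 to 5683 leaving out a library. In DJ-1 KO OVA against WT PBS, the 5 members became 2 with no filter, 2 at a mean of at least 1 FPKM, 10 with equal sums, 2 by limma-voom and 1 to 19 leaving out a library; over all genes 1513 became 669 with no filter and 443 to 3888. In WT OVA against WT PBS the main fit called 1 gene, as higher. With no filter that call was lost and 2 genes were called, both lower. The count was 0 under the pseudocount of 0.1, the higher filter, equal sums, quantile normalization and limma-voom, and 0 to 14 leaving out a library. Members stayed at 0 in those runs.

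On the log2 scale, summed levels leaving out each library ran as follows. In DJ-1 KO OVA against WT OVA they spanned 0.79 to 1.51 for alpha, 0.06 to 1.15 for beta, -0.41 to 0.06 for gamma and -0.62 to 0.08 for delta. Against WT PBS they spanned 1.07 to 1.75, 0.22 to 1.32, 0.11 to 0.54 and -0.27 to 0.24 for the same chains. In WT OVA against WT PBS they spanned -0.03 to 0.66, 0.03 to 0.42, 0.22 to 0.69 and -0.09 to 0.61. With equal FPKM sums the gamma and delta differences from WT OVA turned to 0.42 and 0.31; that scaling moves the median of all genes by 0.46. The cause of the other shifts was not tested. Over named single genes and settings, 3055 values kept their side of the threshold, 233 no longer passed and 48 newly passed. None that passed in the main or the alternative fit reversed direction. The direction of values that passed in neither fit was not checked. No paired analysis was possible because the labels' replicate numbers are not shared between groups. Depth limits single alpha segments, most of which rest on under 100 reads over 9 libraries.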
